A study of Mus musculus with 6 samples.

Results

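The Ly6 region of mouse chromosome 15 holds a run of genes for small cysteine-rich proteins of the Ly6 and uPAR family. The genes described here were Psca, Them6, Lynx1, Ly6d, Ly6e, Ly6a, Ly6c1 and Ly6c2, which made up 8 of the 54532 rows of the deposited expression table. They were chosen by name, through their Ensembl IDs in GENCODE M21 (GRCm38), and were selected on the measured values of these same 6 samples, because the difference between the groups in this region was already known. Their levels are therefore given as a description, with no test. Expression was measured by RNA-seq of polyadenylated RNA from primary cardiomyocytes, the beating muscle cells of the heart, grown from collagenase-digested hearts of neonatal mice with a Cre-inducible Rit1 M90I allele. RIT1 is a RAS-related GTPase, and M90I is a variant found in Noonan syndrome. On day 3 in culture, cells received adenovirus carrying GFP alone (AdGFP, genotype given as Rit1 +/+, 3 samples) or GFP with Cre recombinase (AdCre, genotype given as Rit1 M90I/+, 3 samples). Both groups carried the inducible allele, GFP and adenovirus. Cells without that allele that received Cre were not analysed here, so the variant and the recombinase cannot be told apart. Cell suspensions were pooled during isolation and seeded at about a heart per well after a period of adhesion to plastic, and the labels number the samples of each group as biological replicates 1 to 3 without saying whether these were separate litters.

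Ly6 proteins carry a compact fold held by disulfide bonds, and most are tied to the outside of the cell by a glycolipid anchor. Several serve as surface markers of stem, epithelial, endothelial or myeloid cells, some bind receptors or ion channels, and several are known to respond to interferon. In the heart, Ly6a (also known as Sca-1) and Ly6c1 are known from vascular and stromal cells rather than from muscle. The samples were bulk cultures, so more cells of a type and more RNA per cell cannot be told apart in any value given here.

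Levels are in FPKM, the sequenced fragments of a gene divided by its exon length in kilobases and by the size of the library. The values stepped in whole reads, from which 25.3 M to 26.5 M reads were recovered per AdGFP sample and 25.98 M to 32.4 M per AdCre sample. Rit1 itself had a mean of 8.55 ± 0.775 FPKM in the AdGFP group and of 9.19 ± 0.351 FPKM in the AdCre group (SD, n = 3), and a gene total does not show which allele was read. All 12 cardiomyocyte markers were expressed, with Nppa, the gene of atrial natriuretic peptide, between 1518 and 4223 FPKM. With 3 samples in each group, an exact two-sided permutation test has 0.1 as its smallest p.

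Ly6c1 and Ly6c2 are shown first, because they are near copies and reads from one could be counted in the other. The principal coding sequences of both were 396 bases long and matched at 97.7% of positions. The first 300 coding bases are printed 5′ to 3′ on the minus strand with the bases that differ between the genes in capitals. They are spread over exons within chr15:75045498-75048511 for Ly6c1 and chr15:75108639-75111667 for Ly6c2 (GRCm38).
Ly6c1 coding start: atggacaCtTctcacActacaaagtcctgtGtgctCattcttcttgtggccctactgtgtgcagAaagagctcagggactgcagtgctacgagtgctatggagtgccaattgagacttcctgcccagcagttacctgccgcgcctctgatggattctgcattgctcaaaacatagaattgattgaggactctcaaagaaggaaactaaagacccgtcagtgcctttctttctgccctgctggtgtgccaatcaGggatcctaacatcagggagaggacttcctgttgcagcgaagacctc
Ly6c2 coding start: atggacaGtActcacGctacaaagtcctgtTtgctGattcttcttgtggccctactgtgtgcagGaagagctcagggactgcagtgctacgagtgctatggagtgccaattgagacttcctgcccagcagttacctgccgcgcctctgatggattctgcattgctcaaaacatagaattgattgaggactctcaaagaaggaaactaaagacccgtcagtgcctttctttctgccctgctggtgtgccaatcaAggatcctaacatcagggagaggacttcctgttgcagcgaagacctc
In these stretches, 7 of 300 bases differed. Taken over whole transcripts, 32.8% of the 50-base words of Ly6c1 also occurred in another gene, chiefly Ly6c2 with 21.5% and Ly6a with 11.1%. For Ly6a the share was 19% and for Ly6c2 14.4%, while Psca, Them6, Lynx1, Ly6d and Ly6e shared 0 words with any other gene. How the counting treated reads that match several genes is not given in the sources used here, so levels of Ly6a, Ly6c1 and Ly6c2 are uncertain to that extent.

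The promoters of the Ly6c pair differed more than their coding sequence. Windows from 250 bases before to 50 bases after the start were given by RefSeq (GRCm38.p6) for 2 of the 8 genes, Ly6c1 at chr15:75048788-75049087 and Ly6c2 at chr15:75111922-75112221, both on the minus strand. Capitals mark bases that differ or face a gap when the windows are aligned, and the overhanging ends stay in lower case.
Ly6c1 promoter: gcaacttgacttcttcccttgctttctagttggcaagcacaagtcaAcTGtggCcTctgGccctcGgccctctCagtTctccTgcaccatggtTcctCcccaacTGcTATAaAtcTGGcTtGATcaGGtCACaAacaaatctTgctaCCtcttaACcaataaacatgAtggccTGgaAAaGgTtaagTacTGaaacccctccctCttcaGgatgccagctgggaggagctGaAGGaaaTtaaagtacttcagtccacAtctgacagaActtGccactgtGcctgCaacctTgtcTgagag
Ly6c2 promoter: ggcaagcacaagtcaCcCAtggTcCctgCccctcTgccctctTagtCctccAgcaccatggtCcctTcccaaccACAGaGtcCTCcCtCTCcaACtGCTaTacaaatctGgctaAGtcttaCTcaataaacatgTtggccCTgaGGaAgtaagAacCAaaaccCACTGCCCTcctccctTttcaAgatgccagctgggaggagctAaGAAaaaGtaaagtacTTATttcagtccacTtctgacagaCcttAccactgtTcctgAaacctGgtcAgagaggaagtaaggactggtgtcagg
Over 282 aligned columns the windows were 73.8% identical, with 58 mismatches and 16 gap bases. The TATA box letters TATAAA occurred in Ly6c1, starting at position -143 from the start site, and did not occur in Ly6c2. They were found on either strand in 14.2% of all 27025 promoter windows. Other letters were searched on both strands and had 0 matches in either window. These were an interferon-stimulated element core (GAAANNGAA, in 8.57% of windows), a STAT site (TTCNNNGAA, 8.47%) and an AP-1 site (TGANTCA, 7.93%). An ETS site of the form CCGGAA (15.2%) and a cyclic AMP element (TGACGTCA, 1.88%) were also among them. Other forms of these sites were not searched, so the windows may hold them.

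Along the region, 7 of the 8 genes had a higher mean level in AdCre, and the size of the difference varied widely between neighbours. On the log2(FPKM + 0.1) scale, the difference between group means ran from 0.35 in Lynx1 to 5.53 in Ly6d among the 7 genes whose mean reached 0.5 FPKM. Their median was 1.44, while the median over all 13794 genes at that level was -0.002. In 3 of these 7 the lowest AdCre sample exceeded the highest AdGFP sample, which held for 7.36% of all genes at that level. All 7 were higher in AdCre within each pair of samples with the same replicate number, which held for 23.9% of those genes. These counts come from the contrast on which the genes were chosen, and Ly6d reached 0.5 FPKM through AdCre alone, so nothing is read from them.

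**Figure D1:**
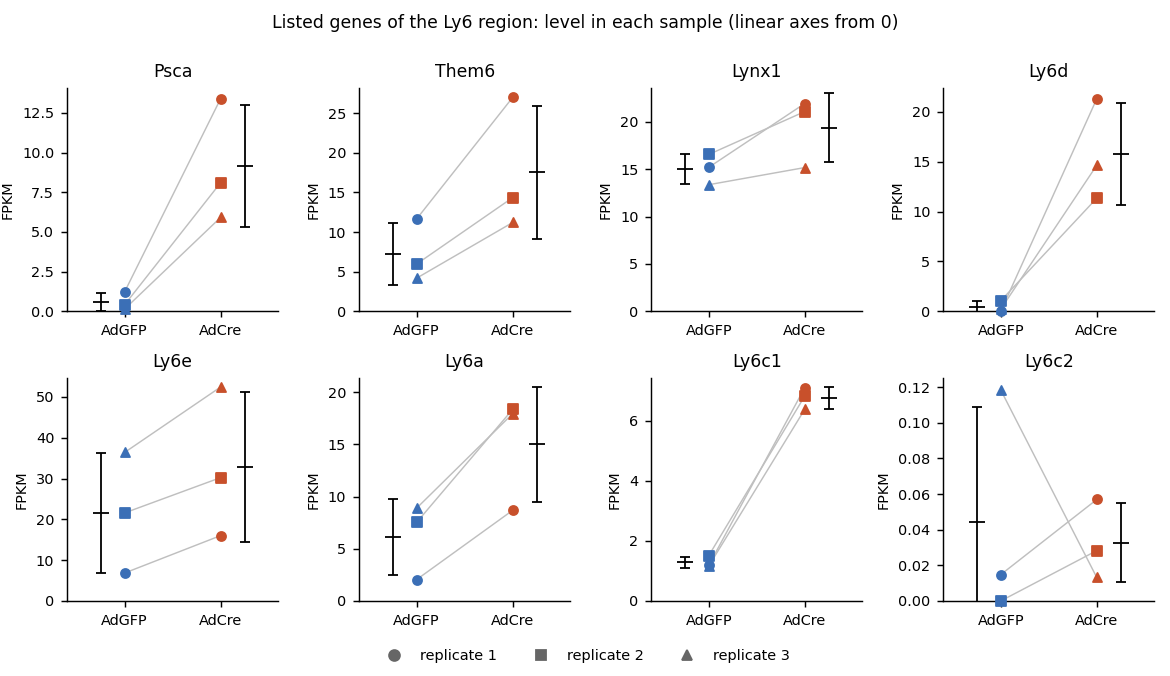
FPKM (linear axes from 0) of each gene in the 3 AdGFP samples (blue) and 3 AdCre samples (orange), with grey lines joining samples of the same replicate number and black bars giving mean ± SD, not drawn below 0. Psca, Ly6d and Ly6c1 separate the groups, Them6, Lynx1, Ly6e and Ly6a overlap but rise along every line, and Ly6c2 stays under 0.12 FPKM.

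Psca, Ly6d and Ly6c1 were the genes with no overlap between the groups. Psca, which encodes prostate stem cell antigen, a surface protein of several epithelia, lies at chr15:74714839-74717069 on the plus strand with 860 bases of exon. Its level was 1.22, 0.413 and 0.142 FPKM in AdGFP 1, 2 and 3 and 13.4, 8.11 and 5.92 FPKM in AdCre 1, 2 and 3. The lowest AdCre sample stood above the highest AdGFP sample, and samples of the same number ranked alike in both groups, with replicate 1 the highest. The means were 0.593 ± 0.563 FPKM and 9.14 ± 3.85 FPKM (SD, n = 3), a ratio of 15.4, and the log2 difference was 3.997 ± 0.79 (SE). Only 38 reads in all lay behind the AdGFP values of Psca against 690 in AdCre, so its ratio rests on a low control level and was 33.0 without AdGFP 1.

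Ly6d, a surface marker of squamous epithelium and of early B-cell precursors, showed the greatest difference of the 8. It lies at chr15:74762056-74763620 on the minus strand, with 744 bases of exon. AdGFP samples 1, 2 and 3 held 0, 1.06 and 0.218 FPKM, and AdCre samples 21.3, 11.3 and 14.7 FPKM. The gene was close to silent in AdGFP, with 24 reads over the 3 samples, and was read 1028 times in AdCre. Means were 0.426 ± 0.56 FPKM and 15.8 ± 5.08 FPKM (SD, n = 3), with a ratio of 37.0 and a log2 difference of 5.53 ± 1.05 (SE). Within pairs the log2 difference was 7.74, 3.30 and 5.54, and the spread came from the AdGFP samples. Without AdGFP 2 the ratio of means was 144.6 and the log2 difference 6.43, and without AdGFP 1 they were 24.7 and 4.66.

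Ly6c1, an anchored protein of endothelial cells and some lymphocytes, was the most even of the 3. It lies at chr15:75044018-75048830 on the minus strand. Its level was 1.18, 1.51 and 1.16 FPKM in the AdGFP samples and 7.09, 6.81 and 6.37 FPKM in the AdCre samples. The samples of each group lay close together, and the gap between the groups was many times their spread. Means were 1.28 ± 0.193 FPKM and 6.76 ± 0.364 FPKM (SD, n = 3), a ratio of 5.27, with a log2 difference of 2.32 ± 0.12 (SE).

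Its near copy Ly6c2, an antigen of inflammatory monocytes, was at or near 0 in every sample. It lies at chr15:75108158-75111970 on the minus strand with 2740 bases of exon. The samples held 0.0148, 0 and 0.118 FPKM in AdGFP and 0.0570, 0.0283 and 0.0132 FPKM in AdCre, or 9 and 8 reads per group in all. The groups overlapped, and no difference was detectable at this depth. Scaled to depth, the ratio of AdCre to AdGFP was 0.776, with a 95% exact interval of 0.261 to 2.27 that covers counting error only. The AdGFP samples held 1, 0 and 8 reads, and without AdGFP 3 the ratio of means went from 0.739 to 4.44. The direction thus rests on that sample. The reads assigned to the Ly6c pair thus lay almost wholly in Ly6c1 in both groups.

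Ly6a and Ly6e form the part of the region between Ly6d and Ly6c1, and in both the groups overlapped. Ly6a encodes Sca-1, a marker of stem, stromal and endothelial cells, and lies at chr15:74994877-74998031 on the minus strand. Its level was 2.05, 7.53 and 8.89 FPKM in AdGFP 1, 2 and 3 and 8.68, 18.3 and 17.9 FPKM in AdCre 1, 2 and 3. The groups overlapped by a narrow margin, AdCre 1 falling just under AdGFP 3, and replicate 1 was the lowest sample of each group. Means were 6.15 ± 3.62 FPKM and 14.99 ± 5.47 FPKM (SD, n = 3), a ratio of 2.44 and a log2 difference of 1.44 ± 0.74 (SE). Within pairs AdCre was 4.24, 2.44 and 2.02 times AdGFP, and without AdGFP 1 the log2 difference was 0.79.

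Ly6e, an interferon-inducible gene whose product is known to affect the entry of viruses into cells, had the highest group means of the 8. It was below Lynx1 and Them6 in AdGFP 1 and in AdCre 1. It lies at chr15:74955051-74959905 on the plus strand. AdGFP samples 1, 2 and 3 held 6.84, 21.6 and 36.4 FPKM, and AdCre samples 16.0, 30.2 and 52.4 FPKM. The groups overlapped broadly, and the range among the samples of either group was wider than the difference between the group means. Means were 21.6 ± 14.8 FPKM and 32.9 ± 18.4 FPKM (SD, n = 3), with a log2 difference of 0.74 ± 0.86 (SE) and within-pair ratios of 2.34, 1.40 and 1.44. That log2 difference was 0.07 without AdGFP 1 and 0.33 without AdCre 3, and 1.27 without AdGFP 3 and 1.18 without AdCre 1, so it rests on single samples.

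Them6 and Lynx1 lie between Psca and Ly6d. Them6 belongs to the thioesterase superfamily and not to the Ly6 family, and lies at chr15:74721204-74724639 on the plus strand. Its level was 11.7, 5.97 and 4.18 FPKM in AdGFP 1, 2 and 3 and 27.0, 14.3 and 11.2 FPKM in AdCre 1, 2 and 3. AdGFP 1 stood slightly above AdCre 3, and the samples ranked as they did for Psca, with replicate 1 the highest of each group, the reverse of Ly6e. The ratios within pairs were close to each other, at 2.32, 2.40 and 2.68, and the log2 difference of the means was 1.29 ± 0.57 (SE). Of its exon bases, 18% also belong to Slurp1 on the other strand, and whether the counting used strand is not given in the sources used here. Slurp1 was listed at no more than 0.110 FPKM in any sample.

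Lynx1, an anchored modulator of nicotinic acetylcholine receptors known from neurons, differed least among the expressed genes when all 6 samples were used. It lies at chr15:74747852-74753046 on the minus strand. Samples held 15.2, 16.6 and 13.4 FPKM in AdGFP and 21.9, 21.1 and 15.2 FPKM in AdCre. AdCre 3 fell among the AdGFP samples while the other AdCre samples stood above them. The ratio of means was 1.29 and the log2 difference 0.35 ± 0.19 (SE). Without AdGFP 1 it was 0.36 beside 0.07 for Ly6e, and without AdCre 3 it was 0.52 beside 0.33 for Ly6e, so the rank rests on single samples.

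Ordered by mean level, AdGFP samples ran from Ly6e, Lynx1, Them6 and Ly6a down to Ly6c1, Psca, Ly6d and Ly6c2. There the means of Ly6e and Lynx1, of Them6 and Ly6a, and of Psca, Ly6d and Ly6c2 in turn were separated by less than the larger SD of the neighbours. In AdCre the order was Ly6e, Lynx1, Them6, Ly6d, Ly6a, Psca, Ly6c1 and Ly6c2, with Ly6d between Them6 and Ly6a in place of its near-silent level in AdGFP. Neighbours from Ly6e to Ly6a, and Psca and Ly6c1, did not differ there beyond the larger of their SDs.

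Genes of the stretch from 74 to 76 Mb of chromosome 15 outside the 8 were fitted in limma with all other genes of the table. Across the table, a term for group alone called 1 of 13794 genes (0.00725%) at an adjusted p under 0.05, while 10.2% had an unadjusted p under 0.05. The called gene was Ly6c1, which was chosen on this same contrast, so nothing is read from its call, and that call was lost without a filter, with voom and in 5 of the 6 fits that left out a sample. Of 72 such annotated genes, 16 had a mean of at least 0.5 FPKM, and none of these lay within the span from Psca to Ly6c2. With a term for group alone, limma called 0 of the 16 at an adjusted p under 0.05, 1 of them had an unadjusted p under 0.05, and voom on the recovered reads called 0. The replicate numbers paired the samples, and with the replicate number as a block, limma called 848 of 13794 genes (6.15%), 364 higher and 484 lower in AdCre. Rescaled to TPM, the blocked fit gave 538 higher and 337 lower. It called 149 genes without pair 2 and 1 without pair 3. With all pairs it called 17 without a filter and 0 without an intensity trend, so the blocked calls depend on the setting.

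Arc was the gene of these 16 that passed with the block. It is an activity-regulated gene known from synapses, on the minus strand, and its lowest base lies 45.8 kb before the first base of Psca. Its level was 1.07, 1.17 and 1.71 FPKM in AdGFP and 6.24, 3.88 and 2.92 FPKM in AdCre, with no overlap between the groups. The log2 difference was 1.604 ± 0.31 (SE), with a limma adjusted p of 0.206 without the block and 0.0451 with it. The blocked limma adjusted p was 0.146 without pair 2, 0.0798 without pair 3, 0.146 without a filter and 0.111 without an intensity trend. Without the block the adjusted p ran from 0.178 to 0.685 over the alternatives. Jrk, which lies between Arc and Psca, held 1.80, 1.40 and 1.09 FPKM in AdGFP and 1.90, 1.21 and 1.46 FPKM in AdCre, with a log2 difference of 0.09 ± 0.26 (SE).

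Past Ly6c2, 14 genes reached a mean of 0.5 FPKM, and 0 of them passed limma with or without the block. Gpihbp1, the family member that carries lipoprotein lipase across capillaries, held 0.507, 0.525 and 0.778 FPKM in AdGFP and 0.501, 0.713 and 0.438 FPKM in AdCre. The groups overlapped, with AdCre 1 and 3 just under the AdGFP samples and AdCre 2 among them, and the limma log2 difference was -0.11 ± 0.34 (SE), with an adjusted p of 0.96. Mafa, a transcription factor of pancreatic beta cells, had the largest limma log2 difference of the 14, at 1.08 ± 0.49 (SE). Its adjusted p was 0.519 without and 0.178 with the block. Its means were 0.360 FPKM in AdGFP and 0.804 FPKM in AdCre, so it reached the filter through AdCre, which favours a high rank. The remaining 12, among them Gsdmd, the pore-forming gasdermin D, and the translation factor gene Eef1d, had limma log2 differences from -0.27 (Zfp623) to 0.36 (Pycrl).

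**Figure D2:**
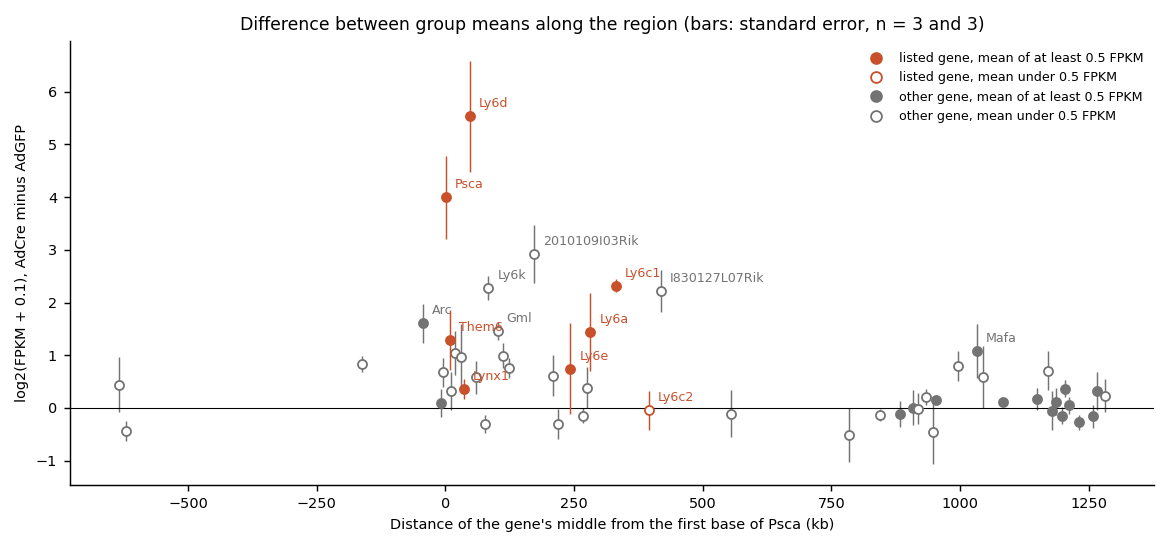
Difference between the group means of log2(FPKM + 0.1), AdCre minus AdGFP, with its standard error (n = 3 and 3), against the distance of the middle of each gene from the first base of Psca in kb. Orange marks the 8 genes and grey the others with a value above 0, filled where the mean was at least 0.5 FPKM. Differences above 2 appear from Psca to I830127L07Rik, whose lowest base lies at 416.5 kb, and the filled points farther right lie near 0 except Mafa.

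Many unlisted genes inside the span were read rarely, and several of these were read mainly in AdCre. Within the span from Psca to Ly6c2, 14 unlisted genes in all had a value above 0 and a mean under 0.5 FPKM, and 8 more were listed at 0 in every sample. In 6 of the 14 the lowest AdCre sample exceeded the highest AdGFP sample, a pattern found in 5.07% of the 14651 genes at that level in the whole table. Outside the span it held for 2 of 4 such genes before Psca and 2 of 11 after Ly6c2. The 6 genes within the span were Lypd2, Ly6k, Gml, Gml2, Cyp11b1 and 2010109I03Rik, and they are named after their values were seen. Their means lay under the 0.5 FPKM filter of the fitted table, so reads are given, with ratios scaled to depth and 95% exact intervals that cover counting error only. Since the genes were picked for groups that do not overlap, these intervals are no test of a difference.

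2010109I03Rik, which RefSeq names Ly6m, showed the largest of these. It held 0, 3 and 0 reads in AdGFP 1, 2 and 3 and 171, 35 and 52 reads in AdCre, or up to 1.62 FPKM. The ratio was 75.1 (25.4 to 367). Ly6k, a testis-enriched family member needed for sperm function, held 2, 1 and 1 reads in AdGFP and 20, 11 and 19 in AdCre, a ratio of 10.9 (4.01 to 41.6). In both genes the lowest AdCre count was several times the highest AdGFP count.

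Gml and Gml2, genes for anchored family members next to each other, were nearly or fully unread in AdGFP. Gml was listed at 0 in all AdGFP samples and had 9, 4 and 5 reads in AdCre. Scaled to depth this was 5.24-fold a floor of 3 reads over the AdGFP group. That figure leaves out counting error in AdCre and is no lower limit. Gml2 had 2, 0 and 0 reads against 7, 4 and 5, a ratio of 6.99 (1.64 to 62.6). Cyp11b1, the steroid 11-beta-hydroxylase of the adrenal cortex and not a family member, had 2, 0 and 0 reads against 10, 9 and 4, and its neighbour Cyp11b2, aldosterone synthase, was listed at 0 throughout. Lypd2 had 1, 1 and 0 reads against 2, 6 and 3, a ratio of 4.80 (1.05 to 44.6).

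Beyond Ly6c2, I830127L07Rik, a transcribed pseudogene that RefSeq names Ly6a2, was listed at 0 in AdGFP and had 10, 13 and 4 reads in AdCre. Against the same floor this was 7.86-fold, with the same limit, and the gene shares 1.54% of the words of Ly6a. The others outside the span were Adgrb1, with 67 reads in AdGFP and 185 in AdCre, 4933427E11Rik, with 4 and 13, and Rhpn1, with 74 and 169. Several Ly6 genes did not show the pattern. Ly6i had 1 read in AdGFP and 0 in AdCre, Ly6f had 3 and 2, Ly6h had 5 and 2, and Ly6g and Ly6l were listed at 0 throughout. At these depths, counts of 3 or fewer in a group do not show whether a gene was silent.

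**Figure D3:**
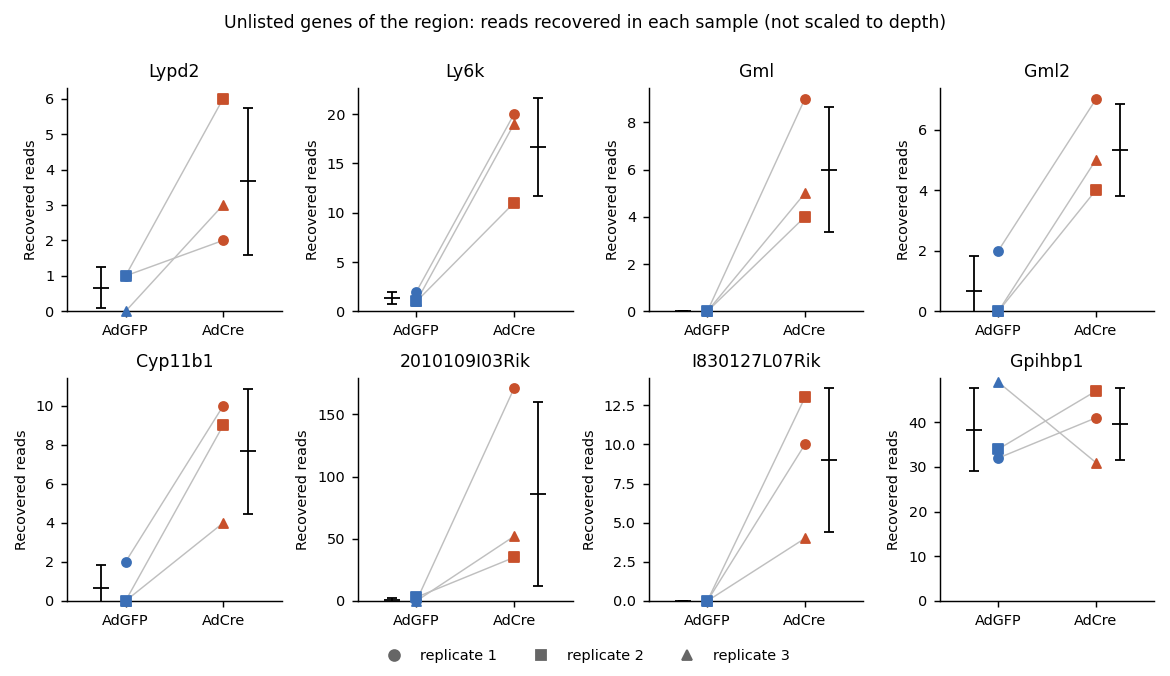
Recovered reads (linear axes from 0, not scaled to depth) of 7 rarely read genes of the region chosen after their values were seen, and of Gpihbp1, in each AdGFP (blue) and AdCre (orange) sample, with grey lines joining equal replicate numbers and black bars giving mean ± SD, not drawn below 0. AdGFP samples hold 0 to 3 reads of the 7 genes and AdCre samples 2 to 171, while Gpihbp1 overlaps between 31 and 49.

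Family genes elsewhere in the genome did not move together. Of 20 such genes in the table, 3 had a mean of at least 0.5 FPKM, and limma called 0 of them at an adjusted p under 0.05 (1 at an unadjusted p under 0.05), as did voom, while the replicate block called 2. Plaur, the receptor for urokinase that gives the uPAR family its name, held 17.8, 6.21 and 6.73 FPKM in AdGFP and 25.1, 10.4 and 12.0 FPKM in AdCre. It was higher in AdCre in each pair, with a limma log2 difference of 0.68 and an adjusted p of 0.711 without and 0.0260 with the block. Cd59a, an inhibitor of the complement membrane attack complex, fell with the block by 0.48 on the log2 scale (adjusted p = 0.0284, and 0.430 without it), from 19.4, 25.7 and 25.7 FPKM to 13.8, 18.9 and 18.1 FPKM. Cd59b held 1.03, 1.43 and 1.44 FPKM and 0.384, 1.31 and 0.666 FPKM, with a blocked adjusted p of 0.161. The blocked calls of Plaur and Cd59a were lost without pair 2 or pair 3, and also without a filter or without an intensity trend. Lypd9 was listed at 0, and the other 16 had means under 0.5 FPKM.

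Interferon-response genes, listed because several Ly6 genes are known to follow them, had positive differences, which passed only in the blocked fit and there in part. Of 24 listed, 22 reached a mean of 0.5 FPKM. Each of the 22 had a positive limma log2 difference, with a median of 1.41 against -0.002 over all genes. Among them Rsad2, Oas1a, Ifi44 and Cmpk2 had AdGFP means under 0.5 FPKM and reached the filter through AdCre, which favours a positive sign. None passed without the block at an adjusted p under 0.05, and 8 had an unadjusted p under 0.05 (10.2% of all genes). With the block 14 rose (6.15% of all genes called by it in either direction). Over the whole table the blocked fit called 0 genes without an intensity trend and 1 without pair 3. The summed level of the list was 52.2, 69.8 and 110.3 FPKM in AdGFP 1, 2 and 3 and 88.4, 163 and 388 FPKM in AdCre. AdCre 1 lay under AdGFP 3, and replicate 3 was the highest of each group, as it was for Ly6e and not for Psca or Them6. The same held for the endothelial, macrophage, epithelial, mesothelial and fibroblast sums given below, so this order is not particular to the interferon list.

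Bst2, the antiviral protein tetherin, was the most abundant of the list and rose with the block (adjusted p = 0.0179, and 0.393 without it), from between 17.0 and 33.5 FPKM in AdGFP to between 35.8 and 127 FPKM in AdCre. Isg15, a ubiquitin-like protein induced by interferon, ran from 4.50, 4.54 and 13.6 FPKM to 7.68, 23.6 and 67.3 FPKM. The summed interferon list had its widest ratio in pair 3. The widest log2 difference was also in pair 3 for Psca (3.35 in pair 1 and 4.64 in pair 3) and Them6 (1.20 and 1.40). It was in pair 1 for Lynx1, Ly6d, Ly6e, Ly6a and Ly6c1, where the Ly6d value rests on an AdGFP sample with 0 reads. The part of the interferon genes in the differences of the Ly6 region was not tested.

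Markers of other cells of the heart are given beside these values, and most of them did not pass in either fit. The 13 endothelial genes summed to 104, 125 and 159.7 FPKM in AdGFP and 149.9, 168 and 221 FPKM in AdCre, and 12 of the 13 had a positive limma log2 difference, with a median of 0.34. Counts of positive and negative differences here and below are on the log2(FPKM + 0.1) scale, where a sign can differ from that of the mean FPKM. The limits of the blocked fit given above hold for this list and those that follow. For all of these lists, the shares over all genes were 6.15% called with the block and 10.2% with an unadjusted p under 0.05. None passed without the block, 3 had an unadjusted p under 0.05, and 4 rose with it, including Eng, a coreceptor of endothelial cells, at 45.9, 53.4 and 68.1 FPKM against 70.9, 73.5 and 101 FPKM. Ly6c1 and Ly6a, both known from endothelium, had log2 differences of 2.32 and 1.44, beside 0.55 for Eng and 0.42 for Cdh5, the cadherin of endothelial junctions.

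Monocyte and macrophage genes summed to 46.2, 198 and 256 FPKM in AdGFP and 82.5, 268 and 319 FPKM in AdCre. The 9 tested genes of these 12 had positive log2 differences, with a median of 0.51 and the smallest, 0.04, in Cd14, whose mean FPKM was the same in both groups to 3 digits, and 1 rose with the block, Lyz2, the lysozyme of myeloid cells (adjusted p = 0.0497, and 0.902 without it). Replicate 1 was the lowest of each group, as for Ly6a and Ly6e. It was also the lowest for the endothelial, fibroblast, epithelial and interferon sums, so this order is not particular to the myeloid list. Ccr2, the receptor that marks inflammatory monocytes along with Ly6c2, was at or under 0.109 FPKM in every sample. Neutrophil genes summed to 1.10 to 2.71 FPKM in AdGFP and 1.13 to 3.10 FPKM in AdCre, and lymphocyte genes to at most 0.394 and 1.16 FPKM, with Cd3e and Cd3d listed at 0.

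Epithelial genes were checked because Psca and Ly6d are known from epithelia. The list of 8 summed to 3.39, 32.2 and 45.8 FPKM in AdGFP and 8.10, 39.5 and 62.4 FPKM in AdCre, and 6 of its 7 tested genes had a positive log2 difference, with a median of 0.44. By mean FPKM, Krt5 and Krt14 were slightly lower in AdCre. In this list 1 gene rose with the block, Cldn4, a claudin of tight junctions, with 0.490, 5.60 and 8.67 FPKM in AdGFP and 1.496, 10.5 and 18.3 FPKM in AdCre (adjusted p = 0.0172, and 0.837 without it). Its replicate 1 samples were the lowest of their groups. Krt14, a keratin of basal epithelium, held 0.207, 7.20 and 9.62 FPKM in AdGFP and 0.355, 6.78 and 9.79 FPKM in AdCre. Trp63, a regulator of squamous epithelium, held 0.863, 0.691 and 0.648 FPKM in AdGFP and 0.327, 0.305 and 0.271 FPKM in AdCre. Its groups did not overlap, with AdCre the lower, and its log2 difference of -1.05 did not pass in either fit (adjusted p = 0.355, and 0.108 with the block).

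Mesothelial and epicardial genes summed to 286 to 468 FPKM in AdGFP and 414 to 539 FPKM in AdCre, and of 11 tested, 4 had a positive and 7 a negative log2 difference (median -0.38), Krt19 being positive on that scale and lower in AdCre by mean FPKM. With the block Krt8 and Krt18, keratins of simple epithelium, and Aldh1a2, an enzyme of retinoic acid synthesis, rose, and Lrrn4 and Tbx18 fell. Msln, the gene of mesothelin, had a log2 difference of -1.08 and did not pass. Fibroblast genes summed to 2689 to 4765 FPKM and 2410 to 3467 FPKM, with 3 of 11 log2 differences positive and a median of -0.24, and the block called 1 higher and 3 lower. All 12 cardiomyocyte genes had a negative log2 difference, with a median of -0.80 and sums of 7301 to 12720 FPKM against 4312 to 6298 FPKM, and 7 fell with the block. None of these 3 lists had a gene that passed without the block, where 4, 1 and 6 genes had an unadjusted p under 0.05. The part of these other cells in the values of the Ly6 region was not tested.

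**Figure D4:**
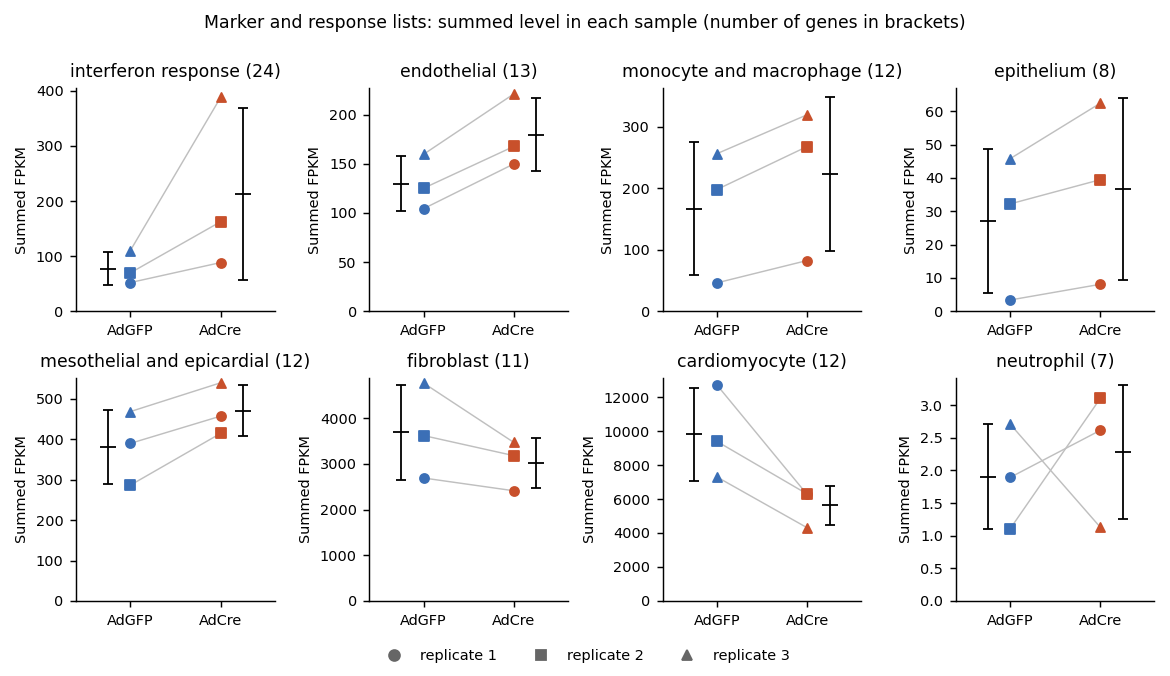
Summed FPKM (linear axes from 0) of the interferon response, endothelial, monocyte and macrophage, epithelial, mesothelial and epicardial, fibroblast, cardiomyocyte and neutrophil lists in each AdGFP (blue) and AdCre (orange) sample, with grey lines joining equal replicate numbers and black bars giving mean ± SD. Interferon sums run from 52.2 to 110.3 FPKM in AdGFP and from 88.4 to 388 FPKM in AdCre, and the cardiomyocyte sums fall along every line.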

How the data were processed

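The deposited table gives FPKM for 6 samples, made by the authors with 1 column per sample and no pooling. The submitters' processing notes name fastp, STAR 2.5, HTSeq 0.6.1 and mm10. The annotation, the use of strand and the treatment of multiply matching reads are not given in the sources used here. Of 54532 Ensembl IDs, 37 were absent from GENCODE M21. Reads were recovered by dividing FPKM times exon length by the step of each sample, and 97.5% to 97.6% of values under 1000 reads came within 0.05 of a whole read.

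Samples were grouped by the labels. The log2(FPKM + 0.1) values of the 13794 genes averaging 0.5 FPKM or more were fitted in limma 3.58.1 under R 4.3.3, with group as the term, a moderated spread with an intensity trend, and Benjamini-Hochberg adjustment over all of them. Differences on this scale understate those of low genes. A gene was called, or said to rise or fall, at an adjusted p under 0.05. Fits were tested on simulated data. Deviations from group means correlated at 0.568, 0.268 and 0.506 between samples of the same number, and at -0.497 to 0.036 otherwise. The numbers were therefore taken to pair the samples, from the values alone, and blocked values are given where they change a call. No library repeated another, with a chi-square per degree of freedom of 39.2 to 126 between replicates. The samples thus differed beyond counting error. Separate litters or isolations are not stated, so p-values may not measure the spread between animals.

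The genes and lists were chosen with earlier results of these data known. Named were the 8 genes, genes of the stretch and of the family list at or above the filter, up to 4 of the most abundant genes of each marker list with defining markers at 0, and the 2 genes most alike to each of the 8. The rarely read genes of the region, Ccr2, Cd14, Krt5, Trp63, Aldh1a2, Lrrn4, Tbx18, Lypd9, Rsad2, Oas1a, Ifi44 and Cmpk2 were named after their values were seen. Shared words were 50 bases long, from GENCODE transcripts. Python 3.11.15, numpy 2.4.6, pandas 2.3.3, scipy 1.17.1, matplotlib 3.10.9 and Biopython 1.88 were used.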

Additional observations from a re-analysis of the deposited data

How the results depend on the processing

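Across all genes, limma called 1 gene without the replicate block, 3 with a pseudocount of 1, 4 without an intensity trend, 0 without a filter on low values, 0 with voom on the recovered reads and 0 to 2 when 1 sample was left out. At an unadjusted p under 0.05, 1402 of 13794 genes stood out in the fit as reported. With the replicate block it called 848 genes. Settings of the blocked fit were added after the data were seen. They gave 772, 149 and 1 calls without pair 1, 2 and 3, 17 without a filter, 0 without a trend, 875 after rescaling to TPM and 1596 with voom. Among the other genes of 74 to 76 Mb, the replicate block called 1 gene, Arc, also without pair 1, after rescaling to TPM and with voom, and 0 without pair 2 or 3, without a filter or without a trend. For the family genes elsewhere it called 2, also in those 3 settings, and 0 in the others. The fits without the block called 0 in both sets under every alternative run. The cause of these changes was not tested.

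The log2 difference of Ly6c2, which is near 0, changed sign from -0.05 to 0.30 with a pseudocount of 0.01, to 0.06 after rescaling to TPM, and to a range of -0.27 to 0.30 when 1 sample was left out. Psca moved from 3.997 to 2.66 with a pseudocount of 1, Ly6d from 5.53 to 3.58 with 1 and to 6.82 with 0.01, and Ly6c1 from 2.32 to 1.77 with 1 and to 2.47 after rescaling to TPM. All other differences of the 8 genes kept their sign and moved by less than 1 SD on the log2 scale, which for Ly6d allowed 4.66 to 6.43 when 1 sample was left out. Without pair 1, 2 or 3, a choice made after the data were seen, 3 to 7 of the 8 genes had groups that did not overlap, beside 20.4%, 15.7% and 16.3% of all genes tested. Genes with fewer than about 10 reads in a group are limited by depth.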

Other observations

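For each of the 7 expressed genes, the 2 protein-coding genes with the most similar pattern were found by Pearson r of log2(FPKM + 0.1) over the 6 samples. The values share libraries and depth. Taking the closest of all tested genes over only 6 samples favours a high r. It is therefore a description and no evidence of shared control. Psca was closest to Ccnd1, the gene of cyclin D1 (r = 0.996, with means of 36.6 FPKM in AdGFP and 80.1 FPKM in AdCre), and to Cep250 (0.993). Them6 was closest to P2ry1 (0.997) and Nuak2 (0.997), and Lynx1 to Hcn2, a pacemaker channel (0.998), and Slc8b1 (0.993). Ly6d was closest to Rnf114 (0.993) and Mfsd11 (0.992), whose means changed far less, from 14.2 to 18.0 FPKM and from 5.04 to 6.39 FPKM. Ly6e was closest to Tcaf2 (0.998) and Apobec3 (0.995), a restriction factor of retroviruses that also lies on chromosome 15. Ly6a was closest to Layn (0.996) and Adam15 (0.994), and Ly6c1 to Gnb4 (0.999) and Abcg1, a sterol exporter (0.996, with means of 1.88 and 4.32 FPKM). No gene was among the closest of more than 1 of the 7.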
